A study of Mus musculus with 19 samples.

Results

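The genes described here are 8 mouse genes used as markers of monocytes: Ly6c2, Ccr2, Ms4a4c, Itgam, Chil3, Plac8, Cx3cr1 and Vcan. They were taken by symbol. Each symbol matched 1 Ensembl gene ID, so all 8 were found among the 55416 gene lines of the count table, and all 8 passed the low-count filter that left 15570 genes for testing. The study asked how the liver responds when the blood supply to the kidney falls short, and whether the response needs interleukin-6. Poly(A) RNA from liver of C57BL/6 mice was sequenced in 19 libraries of 5 groups, and gene counts per library ranged from 32073865 to 74041441. Below, a liver means 1 such library.

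The normal group held 4 libraries from wild-type (WT) mice that were not injected. The WT vehicle group held 4 libraries and the WT PRA group 4. PRA stands for pre-renal azotemia, a build-up of nitrogenous waste in blood when the kidneys are underperfused, induced here with the loop diuretic furosemide. The knockout vehicle group held 4 libraries and the knockout PRA group 3, both from IL-6 -/- mice, so the deletion was shared by these 2 groups. Injected mice received 2 intraperitoneal injections of vehicle or 4 mg furosemide, 3 h apart, and liver tissue was harvested at 6 h. The sources used here do not give age, sex or whether each library came from a separate animal, so the p-values cover only library-to-library spread, which may be technical. Counts of Il6, the deleted gene, were 0 to 4 per library in the normal and WT groups, 1 to 4 in the knockout vehicle group and 3 to 16 in the knockout PRA group. At these counts Il6 did not check the genotype labels, and counts on exons outside a deleted stretch would not check them either. The tissue label was checked on albumin (Alb), whose mean was between 49137 and 85469 CPM (a count divided by its library's TMM-scaled total, the unit of every level here) in the 5 groups.

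Monocytes are white blood cells made in the bone marrow from myeloid precursors. Classical monocytes carry Ly6C and the chemokine receptor CCR2, which binds CCL2 and CCL7 and which they need to leave the marrow, and enter inflamed tissue. Non-classical monocytes carry high CX3CR1 and patrol along vessel walls. The liver also holds its own macrophages, the Kupffer cells, and recruited monocytes can replace them when they are lost.

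By role, Ly6c2 encodes the surface antigen Ly6C of classical monocytes, Ccr2 the receptor for CCL2, and Cx3cr1 the receptor for fractalkine. Itgam encodes CD11b, an integrin chain that pairs with the Itgb2 product and is carried by neutrophils and NK cells as well as monocytes. Ms4a4c encodes a membrane protein of the MS4A family. Chil3 encodes the secreted chitinase-like protein Ym1, Plac8 a small cysteine-rich protein, and Vcan the matrix proteoglycan versican, which connective tissue cells also make. In bulk liver, fewer cells of a type and less RNA per cell cannot be told apart.

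The identifiers are ENSMUSG00000022584 for Ly6c2 on chromosome 15, ENSMUSG00000049103 for Ccr2 and ENSMUSG00000052336 for Cx3cr1, both on chromosome 9, and ENSMUSG00000024675 for Ms4a4c on chromosome 19. Itgam is ENSMUSG00000030786 on chromosome 7, Chil3 is ENSMUSG00000040809 on chromosome 3, Plac8 is ENSMUSG00000029322 on chromosome 5 and Vcan is ENSMUSG00000021614 on chromosome 13.

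The promoters of 3 of the members with called changes are shown as examples that differ in the motif searched: Ms4a4c and Ccr2, which were lower in knockout PRA livers, and Itgam, which was higher in WT PRA livers. Each is the 250 bases before the start of the RefSeq transcript, on build GRCm38.p6 and on the plus strand. Capitals mark GAGGAA or its reverse complement, a core bound by ETS factors such as PU.1, the master regulator of myeloid genes.
Ms4a4c, chr19:11407411-11407660: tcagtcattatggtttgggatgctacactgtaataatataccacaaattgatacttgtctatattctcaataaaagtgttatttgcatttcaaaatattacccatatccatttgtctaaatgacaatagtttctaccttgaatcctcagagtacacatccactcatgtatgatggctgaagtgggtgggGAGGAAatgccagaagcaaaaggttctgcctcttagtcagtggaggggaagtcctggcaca
Ccr2, chr9:124101933-124102182: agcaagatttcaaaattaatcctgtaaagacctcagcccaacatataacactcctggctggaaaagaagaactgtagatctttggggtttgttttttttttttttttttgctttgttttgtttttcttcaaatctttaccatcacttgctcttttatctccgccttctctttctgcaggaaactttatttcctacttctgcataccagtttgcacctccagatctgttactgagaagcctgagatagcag
Itgam, chr7:128062390-128062639: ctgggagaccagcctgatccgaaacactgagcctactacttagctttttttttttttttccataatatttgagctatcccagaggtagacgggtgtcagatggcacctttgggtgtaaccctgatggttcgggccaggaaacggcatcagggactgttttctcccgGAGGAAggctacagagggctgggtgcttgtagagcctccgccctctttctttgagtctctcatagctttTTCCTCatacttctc

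The Itgam window held 2 such matches, the Ms4a4c window 1 and the Ccr2 window 0. Over both strands, GAGGAA was in a window of 4 of the 8 members (Itgam, Ly6c2, Ms4a4c and Plac8) and in 23.3% of 32851 RefSeq windows of the same length. The C/EBP motif TTNNGNAA was in 6 of 8 members and in 36.8% of all windows, and the STAT motif TTCNNNGAA was in 1 of 8, Chil3, and in 7.02%. Ly6c2 and Plac8 have 2 start sites each in the table and were counted as holding a motif if either window did. A match is a description of the letters, and the window with 0 matches says only that these letters are not in it.

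All 8 genes were at a low level in liver. Their summed level was 4.44 to 7.21 CPM in normal livers, 5.62 to 7.13 in WT vehicle, 7.95 to 12.04 in WT PRA, 7.40 to 10.7 in knockout vehicle and 5.31 to 7.40 in knockout PRA. Plac8 made up most of that sum. Per kilobase of exon, the mean level of Plac8 was 2.26 to 4.13 CPM over the 5 groups, and those of Ly6c2, Ccr2, Ms4a4c, Chil3, Cx3cr1 and Vcan lay between 0.00504 (Vcan, WT vehicle) and 0.285 (Chil3, WT PRA). Itgam was left out of that per-length comparison, because 68.7% of its 5024 exon bases lie in exons of the same-strand gene Gm49368, which took 0 to 4 counts per library. The sources used here do not say how reads lying in both genes were counted, so the level of Itgam may miss such reads in every library.

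**Figure D1:**
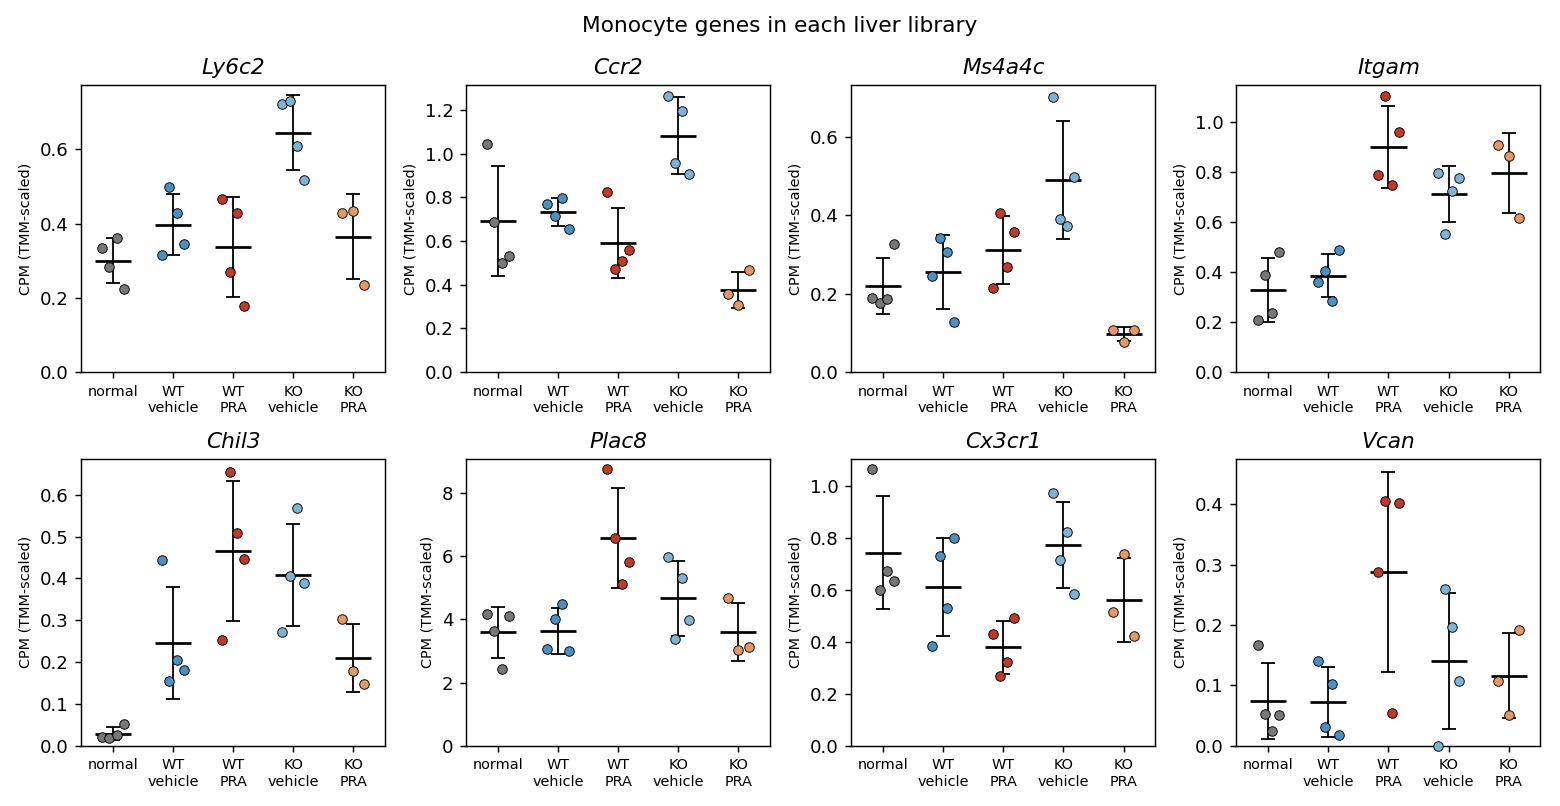
Level of each of the 8 monocyte genes in every library, in TMM-scaled CPM on the vertical axis of each panel, by group on the horizontal axis. Points are libraries, and bars are the group mean and SD. Itgam and Plac8 sit higher in WT PRA than in WT vehicle, Ccr2 and Ms4a4c sit lowest in knockout PRA, and Chil3 is near 0 in the 4 normal livers.

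In WT livers, PRA was set against vehicle. Itgam and Plac8 rose and the other 6 members did not pass the test, so 2 of 8 were called higher and 0 lower, against 9.74% of all tested genes called higher, 12.3% called lower and 22.1% in either direction. Itgam was at 0.362, 0.404, 0.285 and 0.491 CPM in the WT vehicle livers and at 0.791, 1.10, 0.749 and 0.962 CPM in the WT PRA livers. Every WT PRA liver was above every WT vehicle liver. The log2 fold change of Itgam was 1.23 ± 0.28 (SE), a 2.34-fold increase (edgeR quasi-likelihood test, adjusted p = 0.00294).

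Plac8 was at 3.06, 4.01, 4.48 and 3.00 CPM in WT vehicle and at 8.77, 6.58, 5.11 and 5.82 CPM in WT PRA. After TMM scaling these groups did not overlap either, with WT PRA replicate 1 the highest of all 19 libraries. The log2 fold change of Plac8 was 0.85 ± 0.22, or 1.80-fold (edgeR adjusted p = 0.0077). Groups that do not overlap were seen for 2 of 8 members and for 23.2% of all tested genes.

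Ly6c2 and Ccr2, the genes that define classical monocytes, did not pass the test in WT livers. Ly6c2 was at 0.316, 0.497, 0.428 and 0.345 CPM after vehicle and at 0.467, 0.271, 0.428 and 0.179 CPM under PRA, with a log2 fold change of -0.27 ± 0.32 (edgeR adjusted p = 0.596). Ccr2 was at 0.771, 0.715, 0.795 and 0.654 CPM after vehicle and at 0.827, 0.474, 0.508 and 0.559 CPM under PRA, with a log2 fold change of -0.33 ± 0.26 (edgeR adjusted p = 0.397). For both genes the groups overlapped. Cx3cr1 had a log2 fold change of -0.68 ± 0.31 (edgeR adjusted p = 0.12), from 0.611 ± 0.189 CPM (SD, n = 4) to 0.379 ± 0.101 CPM (SD, n = 4). It passed in limma-voom (-0.82, adjusted p = 0.0448).

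Ms4a4c had a log2 fold change of 0.31 ± 0.36 (edgeR adjusted p = 0.575). Chil3 had a log2 fold change of 0.90 ± 0.39 (edgeR adjusted p = 0.104), which reached 1.40 with an adjusted p of 0.0154 without WT vehicle replicate 1, the highest vehicle library for this gene, and 1.32 with an adjusted p of 0.0103 in limma-voom. Vcan had a log2 fold change of 1.91 ± 0.74 (edgeR adjusted p = 0.0691) on 1 to 18 counts per library. Vcan passed without WT vehicle replicate 1 (2.55, adjusted p = 0.0419), without WT PRA replicate 3 (2.25, adjusted p = 0.0349) or without knockout vehicle replicate 1 (1.91, adjusted p = 0.0373). The median log2 fold change of the 8 members was 0.58, beside -0.03 for all tested genes.

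In IL-6 -/- livers, PRA was again set against vehicle. Ccr2 and Ms4a4c fell, and no member was called higher, so 2 of 8 were called lower against 8.38% of all tested genes called lower, 7.96% called higher and 16.3% in either direction. Ccr2 was at 1.27, 0.957, 1.197 and 0.907 CPM in knockout vehicle livers and at 0.357, 0.306 and 0.467 CPM in knockout PRA livers. Its log2 fold change was -1.51 ± 0.29, a 2.85-fold lower level (edgeR adjusted p = 0.0012). The highest knockout PRA liver lay under the lowest knockout vehicle liver.

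The knockout vehicle livers held Ms4a4c at 0.702, 0.389, 0.373 and 0.497 CPM. The knockout PRA livers held it at 0.107, 0.0764 and 0.106 CPM, on 6, 3 and 5 counts. All 3 knockout PRA livers lay under all 16 libraries of the other groups. The log2 fold change of Ms4a4c was -2.30 ± 0.43, a 4.91-fold lower level (edgeR adjusted p = 0.000925). Pooled over libraries, 14 counts against 102 gave a ratio of 0.203 with an exact 95% interval of 0.107 to 0.356, which covers counting error only.

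For Ly6c2 the knockout vehicle livers were at 0.721, 0.730, 0.609 and 0.518 CPM and the knockout PRA livers at 0.428, 0.433 and 0.234 CPM. These groups did not overlap, yet the log2 fold change of -0.82 ± 0.34 did not pass the test (edgeR adjusted p = 0.104). Groups were apart for 3 of 8 members, all lower under PRA, and for 25.2% of all tested genes. Itgam, which rose in WT livers, had a log2 fold change of 0.16 ± 0.29 (edgeR adjusted p = 0.749), and Plac8 had one of -0.36 ± 0.24 (edgeR adjusted p = 0.324).

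Chil3 had a log2 fold change of -0.93 ± 0.44 (edgeR adjusted p = 0.161) and Cx3cr1 one of -0.48 ± 0.32 (edgeR adjusted p = 0.335). Vcan had one of -0.28 ± 0.82 (edgeR adjusted p = 0.861), and 1 knockout vehicle library held 0 Vcan counts, where 3 counts would have been 0.0599 CPM before TMM scaling. The median over the 8 members was -0.65, beside -0.00433 for all tested genes.

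**Figure D2:**
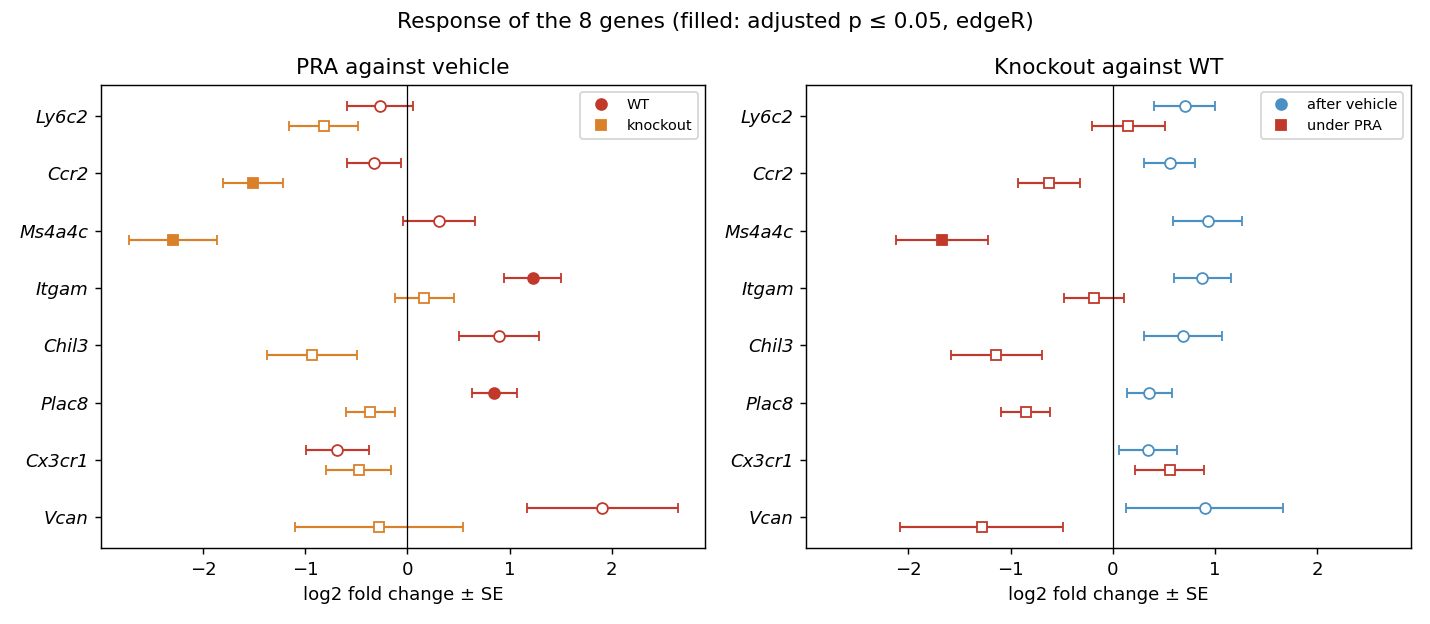
Log2 fold change of each monocyte gene with its standard error (horizontal axis), for PRA against vehicle in each genotype (left) and knockout against WT after vehicle and under PRA (right), from the edgeR fit to all 19 libraries, with filled symbols for an adjusted p at or under 0.05. Filled on the left are Itgam at 1.23 and Plac8 at 0.85 in WT livers and Ccr2 at -1.51 and Ms4a4c at -2.30 in knockout livers, and on the right Ms4a4c at -1.67 under PRA.

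The difference between the 2 responses was tested as an interaction, in which the change in WT is subtracted from that in the knockout. Ms4a4c was the 1 member of 8 called, against 0.475% of all tested genes, 0.437% below 0 and 0.0385% above. Its interaction was -2.61 ± 0.56 on the log2 scale (edgeR adjusted p = 0.0333): the level was 0.255 ± 0.0941 CPM in WT vehicle, 0.312 ± 0.086 in WT PRA, 0.490 ± 0.151 in knockout vehicle and 0.0965 ± 0.0174 in knockout PRA (SD, n = 4, 4, 4 and 3). The call was lost without any 1 of 11 libraries (WT vehicle 1 or 4, WT PRA 2, 3 or 4, knockout vehicle 1, 3 or 4, knockout PRA 1, 2 or 3), with adjusted p up to 0.115, and with no low-count filter (0.0566), limma-voom (0.0659) or a fit on only these groups (0.0537). The value stayed between -2.71 and -2.38 in these. Plac8 had an interaction of -1.21 ± 0.32 (edgeR adjusted p = 0.127, DESeq2 0.0221), Chil3 one of -1.83 ± 0.59 (0.255), Ccr2 one of -1.18 ± 0.39 (0.281) and Itgam one of -1.06 ± 0.40 (0.376).

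The interaction was above 0 for 1 of 8 members, Cx3cr1, beside 54.5% of all tested genes, and the median was -1.198 beside 0.03. At an unadjusted p under 0.05 it reached 5 of 8 members and 8.94% of all tested genes. In the edgeR test the responses of Itgam, Plac8 and Ccr2 were therefore not shown to differ between genotypes, while DESeq2 called the interaction of Plac8. These comparisons share vehicle and PRA libraries, so their values are given side by side and not as separate support.

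Under PRA, knockout livers were set against WT livers. Ms4a4c was 3.19-fold lower in the knockout (log2 fold change -1.67 ± 0.45, edgeR adjusted p = 0.0395), the 1 member of 8 called, against 2.15% of all tested genes called lower, 1.64% called higher and 3.80% in either direction. That call was lost without WT PRA replicate 2, 3 or 4 or any of the knockout PRA libraries, with adjusted p up to 0.121, and with no low-count filter (0.0748) or limma-voom (0.0541). Plac8 lay just outside the threshold at -0.85 ± 0.24 (edgeR adjusted p = 0.0509, DESeq2 0.0116), and its 3 knockout PRA livers, at 4.67, 3.03 and 3.12 CPM, all lay under the lowest WT PRA liver at 5.11 CPM. Groups were apart for 3 of 8 members (Ccr2, Ms4a4c and Plac8, all lower in the knockout), beside 15.7% of all tested genes. For Ccr2 the gap was narrow, with the highest knockout PRA liver at 0.467 CPM and the lowest WT PRA liver at 0.474 CPM. On unscaled totals the Ccr2 groups overlapped.

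After vehicle, no member passed the edgeR test between genotypes (0 of 8 called, against 0.0706% of all tested genes, 0.0514% higher and 0.0193% lower), and DESeq2 and limma-voom called 0 as well. At an unadjusted p under 0.05, edgeR gave 4 of 8 members, beside 5.99% of all tested genes. All 8 log2 fold changes were above 0, with a median of 0.70 beside -0.01 for all genes, of which 47.6% were above 0. Ly6c2 had a difference of 0.71 ± 0.30 (edgeR adjusted p = 0.745), Ccr2 of 0.56 ± 0.25 (0.776), Ms4a4c of 0.93 ± 0.34 (0.654) and Itgam of 0.88 ± 0.28 (0.522). In these 4 genes every knockout vehicle liver lay above every WT vehicle liver, which 2.69% of all tested genes showed in either direction. The knockout vehicle libraries are the reference of the knockout PRA comparison, so the same 4 libraries enter both values.

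Genes of other white cells stood as follows in the same libraries. The summed level of 5 genes of white blood cells in general (Ptprc, Coro1a, Laptm5, Cd52 and Cd53) was 33.6 to 37.1 CPM there and 18.9 to 32.8 CPM in WT vehicle, with 0 of 5 called. All 8 tested neutrophil genes had positive differences with S100a8 called (log2 2.16 ± 0.33, edgeR adjusted p = 0.00913), and the same was so for all 10 non-classical monocyte genes with 0 called. Their part in the values of the 8 members was not tested.

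WT vehicle livers were set against normal livers, which were not injected. The sources used here do not give the handling or harvest time of the normal group. Chil3 rose and was the 1 member of 8 called, against 1.18% of all tested genes called higher, 0.822% called lower and 2.00% in either direction. Chil3 was at 0.0209, 0.0177, 0.0249 and 0.0515 CPM in normal livers, on 1, 1, 2 and 3 counts, and at 0.444, 0.155, 0.204 and 0.182 CPM in WT vehicle livers, on 38, 10, 10 and 10 counts. Every WT vehicle liver was above every normal liver, as for 8.52% of all tested genes. The log2 fold change was 3.03 ± 0.53 (edgeR adjusted p = 0.00349), and the pooled counts, 68 against 7, gave a ratio of 9.30 with an exact 95% interval of 4.28 to 24.0, again for counting error only. WT vehicle replicate 1 held 38 of the 68 counts, and without it the log2 fold change was 2.53 (edgeR adjusted p = 0.0152). Chil3 passed the low-count filter only with the other groups included. A fit on only the WT vehicle and normal groups tested 6 of the 8 members, without Chil3, and called 0.

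Against normal livers, WT PRA livers held 5 of 8 members called, 4 higher and 1 lower, beside 13.5% and 14.9% of all tested genes and 28.4% in either direction. Chil3 had a log2 fold change of 3.93 ± 0.52 (edgeR adjusted p = 8.23e-06), Itgam one of 1.46 ± 0.28 (0.000552) and Plac8 one of 0.87 ± 0.22 (0.00507). Cx3cr1 fell, with a log2 fold change of -0.97 ± 0.31 (edgeR adjusted p = 0.0225), from 1.07, 0.601, 0.672 and 0.635 CPM to 0.431, 0.271, 0.321 and 0.492 CPM. After TMM scaling the groups of those 4 genes did not overlap, as for 33.6% of all tested genes. On unscaled totals the Plac8 groups overlapped: normal replicate 1 held 200 of 43110725 counts and WT PRA replicate 3 held 191 of 44205920. The Cx3cr1 call was lost without normal replicate 1 (0.0903), without WT PRA 2 (0.0791) and without WT PRA 3 (0.061), each an adjusted p.

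Vcan rose at the threshold, with a log2 fold change of 2.04 ± 0.76 (edgeR adjusted p = 0.0496), from 8, 3, 2 and 3 counts to 8, 18, 2 and 18 counts. The groups overlapped, and leaving out any 1 of 13 libraries (normal 2, 3 or 4, WT vehicle 2 or 3, WT PRA 1, 2 or 4, knockout vehicle 3 or 4, knockout PRA 1, 2 or 3) ended the call, with adjusted p up to 0.135, as did upper quartile scaling (0.0539) and no low-count filter (0.0685). WT PRA differs from normal in both injection and furosemide, and it shares its libraries with the comparison against vehicle.

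Across the 5 groups, the members did not share one order. Ly6c2, Ccr2, Ms4a4c and Cx3cr1 were highest in knockout vehicle, and Itgam, Chil3, Plac8 and Vcan were highest in WT PRA. The highest group mean was 2.15 times the lowest for Ly6c2, 2.87 for Ccr2, 5.08 for Ms4a4c and 16.2 for Chil3. Of 32 neighbouring pairs of group means, 26 had overlapping libraries and 6 were apart, beside 5.82% apart among the same kind of pairs over all tested genes. The 6 pairs that were apart were knockout vehicle over WT vehicle for Ly6c2, Ccr2 and Itgam, WT PRA over knockout PRA for Ccr2, normal over knockout PRA for Ms4a4c, and knockout PRA over normal for Chil3. The Ccr2 pair of WT PRA and knockout PRA was apart only after TMM scaling.

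Some pairs of members moved together over the 19 libraries, as Pearson correlations of log2 CPM. These describe libraries that share groups, depth and scaling. Itgam and Chil3 gave 0.707, and 0.236 within groups. Ccr2 and Ms4a4c gave 0.648, and -0.102 within groups. Among 11087 genes, those most like Itgam were S100a8 (0.904), S100a9 (0.895) and Rnmt (0.844). Those most like Ccr2 were Zfp414 (0.842), Cda (0.834) and Lpar6 (0.833), and those most like Ms4a4c were Trim12c (0.804), Gng2 (0.797) and Evl (0.788). For Chil3 they included Bin2 (0.872) and Srsf5 (0.836), and for Plac8 they were Ninj1 (0.813), Ssbp4 (0.799) and Hpx (0.797). For Cx3cr1 they were Htra2 (0.868), Fam151b (0.865) and Abcd2 (0.843), for Ly6c2 Setd6 (0.749), Nrn1 (0.745) and Cirbp (0.739), and for Vcan Sntb2 (0.731), Crp (0.713) and Abhd17c (0.705).

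Itgam is also a neutrophil gene, and neutrophil markers rose with it in WT PRA. In knockout PRA, where some of them rose, Itgam did not pass (log2 0.16 ± 0.29, edgeR adjusted p = 0.749). Of 12 neutrophil markers listed, 8 were tested, and 7 rose in WT PRA against vehicle and 3 in knockout PRA. Beside this and the lists that follow, 9.74% of all tested genes rose and 12.3% fell in WT PRA. In knockout PRA 7.96% rose and 8.38% fell. Their summed level was 1.40 to 2.35 CPM in normal, 1.65 to 3.78 in WT vehicle, 12.97 to 15.0 in WT PRA, 5.18 to 7.07 in knockout vehicle and 4.97 to 14.6 in knockout PRA. S100a8, a calcium-binding protein abundant in neutrophils and monocytes, was at 0.242 ± 0.0576 CPM in WT vehicle and 3.35 ± 0.37 CPM in WT PRA (SD, n = 4 each). Ly6g, the defining surface marker of mouse neutrophils, had 0 counts in all normal and WT vehicle libraries, 0 to 4 in WT PRA, 0 to 2 in knockout vehicle and 0 to 15 in knockout PRA. The part of neutrophils in the rise of Itgam was not tested.

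Of 14 other classical monocyte genes, 12 were tested, of which 5 rose and 1 fell in WT PRA, and 1 rose and 3 fell in knockout PRA. Ccr1, a chemokine receptor, rose in WT PRA (log2 2.01 ± 0.47, edgeR adjusted p = 0.0037), as did Ms4a6c, a relative of Ms4a4c (log2 0.79 ± 0.20, edgeR adjusted p = 0.00688). Thbs1, the matrix protein thrombospondin-1, rose in both genotypes, with log2 fold changes of 1.99 ± 0.47 in WT and 1.57 ± 0.50 in knockout livers (edgeR adjusted p = 0.00483 and 0.0375).

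Of 10 non-classical monocyte genes, Ace rose in WT PRA (log2 0.93 ± 0.27, edgeR adjusted p = 0.0177). Nr4a1, the nuclear receptor these cells need, rose in knockout PRA (log2 2.33 ± 0.59, edgeR adjusted p = 0.0132), at 3.99 to 13.6 CPM. The list did not rise with it: 3 of 10 log2 fold changes were above 0 in knockout PRA, with a median of -0.25. In WT PRA 6 of 10 were above 0, with a median of 0.17. The other genes of the list did not pass in those comparisons.

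Of 16 ligands and adhesion genes, 11 were tested, and 1 rose and 2 fell in each genotype. Vcam1, an endothelial adhesion molecule for monocytes, rose in both, with log2 fold changes of 1.34 ± 0.18 in WT and 1.06 ± 0.19 in knockout livers (edgeR adjusted p = 2.06e-05 and 0.000614). Csf1, the growth factor of monocytes and macrophages, fell in both, with log2 fold changes of -0.74 ± 0.15 and -0.80 ± 0.17 (edgeR adjusted p = 0.00146 and 0.00214). Il34, the second ligand of the CSF1 receptor, fell in WT livers (log2 -0.73 ± 0.22, edgeR adjusted p = 0.0203). Icam1 fell in knockout livers (log2 -0.66 ± 0.20, edgeR adjusted p = 0.0265). Ccl2, the main ligand of CCR2, is named after its values were seen: it was at 0.278 ± 0.0391 CPM in WT vehicle and 0.444 ± 0.155 in WT PRA, at 0.485 ± 0.332 in knockout vehicle and 0.273 ± 0.230 in knockout PRA, and it passed in neither genotype (edgeR adjusted p = 0.446 and 0.39).

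Of 10 receptors and transcription factors of the lineage, 5 rose and 1 fell in WT PRA, and 3 rose and 1 fell in knockout PRA. Cebpb, which hepatocytes also express, rose, with log2 fold changes of 1.86 ± 0.10 in WT and 1.59 ± 0.11 in knockout livers (edgeR adjusted p = 1.8e-10 and 9e-09). Klf4, a factor of monocyte differentiation, rose too, at log2 1.31 ± 0.26 and 1.93 ± 0.27 (edgeR adjusted p = 0.000831 and 5.48e-05). Zeb2 fell in both, at log2 -1.01 ± 0.16 and -0.85 ± 0.17 (edgeR adjusted p = 8.36e-05 and 0.00127).

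**Figure D3:**
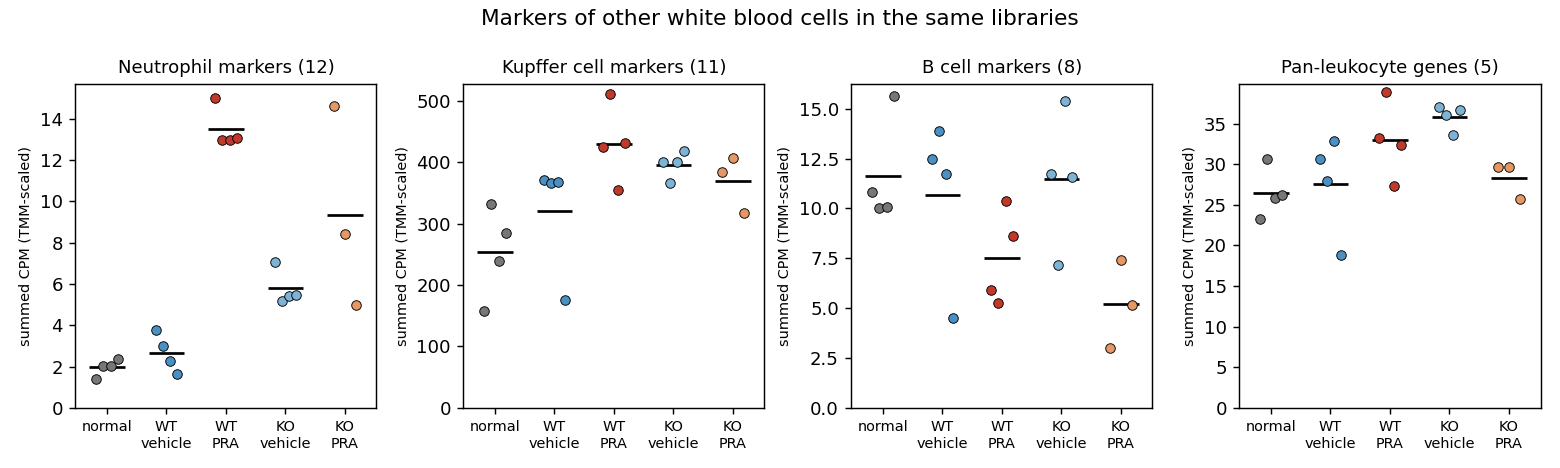
Summed level of the neutrophil, Kupffer cell, B cell and general white cell (pan-leukocyte) lists in every library, in TMM-scaled CPM on the vertical axis of each panel, by group (KO is IL-6 -/-). Points are libraries and black lines are group means, and the number in each title counts the genes summed. Neutrophil genes are at 12.97 to 15.0 CPM in WT PRA and at 4.97 to 14.6 CPM in knockout PRA, and genes of white cells in general are at 33.6 to 37.1 CPM in knockout vehicle.

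Among other cell types, 1 of 11 Kupffer cell genes (C1qb) was called in WT PRA and 0 in knockout PRA, with sums of 176 to 371 CPM in WT vehicle and 355 to 510 in WT PRA. Log2 fold changes were above 0 for all 11 in WT PRA (median 0.42), beside 47.0% of all tested genes. In knockout PRA they were above 0 for 3 of 11 (median -0.06), beside 49.5%. Against normal livers, 6 of 11 were called higher in WT PRA, beside 13.5% of all tested genes. Of 8 B cell genes, 4 fell in WT PRA and 6 in knockout PRA, among them Cd79a, a chain of the B cell receptor complex, at log2 -2.29 ± 0.54 and -2.58 ± 0.53 (edgeR adjusted p = 0.00407 and 0.00201). Ptprc, the gene of CD45, passed in neither genotype (edgeR adjusted p = 0.837 and 0.161), while 2 of the 5 general white cell genes fell in knockout PRA, Coro1a and Cd52. T and NK cell genes gave 0 of 8 calls in either genotype. Of 9 dendritic cell genes, 1 fell in WT PRA and 2 in knockout PRA, H2-Ab1 and Cd74. The sum of the 9 was 66.1 to 96.5 CPM in knockout PRA against 141 to 157 CPM in knockout vehicle. The fall was not shared by the whole list: 3 of the 9 had log2 fold changes above 0 there. Clec9a, another of the 9, had means of 1.56 CPM in knockout vehicle and 1.54 CPM in knockout PRA. Of 12 endothelial genes, 7 fell and 1 rose in WT PRA and 4 fell and 1 rose in knockout PRA. Over all tested genes, 12.3% fell and 9.74% rose in WT PRA, and 8.38% fell and 7.96% rose in knockout PRA. Of 10 stellate cell and fibroblast genes, 4 fell in WT PRA and 3 in knockout PRA, with sums of 185 to 235 CPM in WT vehicle and 111 to 244 CPM in WT PRA. The part of these cells in the values of the 8 members was not tested.

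Relatives of the members were read as a check on shared sequence. Of 100-base windows of its transcripts, 5.81% of Ly6c2 matched the endothelial gene Ly6c1, 4.93% of Chil3 matched Chil4 or Gm6522, and 1.66% of Ms4a4c matched Ms4a4b, while Plac8, Cx3cr1 and Vcan shared 0. Ly6c1 was at 0.461 ± 0.192 CPM in WT vehicle and 0.901 ± 0.567 in WT PRA and did not pass (edgeR adjusted p = 0.0909). Chil4 had 0 counts in every library. Ms4a4b fell in knockout PRA, as Ms4a4c did, at log2 -1.88 ± 0.53 (edgeR adjusted p = 0.0184). How reads that match both genes were counted is not stated for any of these.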

How the data were processed

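Liver poly(A) RNA was sequenced as read pairs, per the labels' protocols. The authors deposited raw counts per gene, unnormalized, as a series table and as 1 file per library with the same counts. Per the submitters' processing notes, the tools were HTSeq 0.11.3, HISAT2 2.2.1 and SAMtools 1.13, and the build was GRCm39. The sources used here do not give the annotation release, the strand setting or the treatment of overlapping genes. In the summary lines, which were kept out of tests, 66.95% to 71.71% of reads fell in genes and 14.07% to 19.15% were not uniquely placed.

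Counts were analysed with edgeR 4.0.16 and limma 3.58.1 in R 4.3.3: filterByExpr on group (15570 genes), TMM scaling, and 1 robust quasi-likelihood fit with a mean per group over all 19 libraries. There were 7 contrasts, each adjusted by Benjamini-Hochberg over all tested genes, with 0.05 as the threshold. Levels are TMM-scaled CPM. Exon lengths are from GENCODE M21. Symbols were matched for 52083 of 55416 gene lines. The steps were tested on simulated data. Alternatives were other scalings, other low-count filters, DESeq2 1.42.0, limma-voom, a replicate block, fits on only the groups compared, and leaving out each library.

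The members and lists were chosen with earlier results of these data known. All 8 members were named. Of each other list, up to 4 genes called in either PRA against vehicle comparison were named, those with the smallest p, plus relatives of the members, Ptprc and Il6. Some genes that these rules name are not reported here. Likeness names the 3 genes with the highest correlation, among genes with a mean of at least 1 CPM.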

Additional observations from a re-analysis of the deposited data

Results flagged for a closer look

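Of 32 gene and group combinations of 4 libraries, 3 held 1 library far from the rest by Dixon's test at the 95% level, which chance gives in about 1 in 20. Ms4a4c was at 0.326 CPM in normal replicate 4, with the other normal livers at 0.188, 0.177 and 0.187. Chil3 was at 0.444 CPM in WT vehicle replicate 1, with the others at 0.155, 0.204 and 0.182. Cx3cr1 was at 1.07 CPM in normal replicate 1, with the others at 0.601, 0.672 and 0.635.

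The response of Ms4a4c to PRA passed the test of a difference between genotypes, with an interaction of -2.61 on the log2 scale (edgeR adjusted p = 0.0333). The call was lost in 11 of 19 fits without 1 library and in 4 of 7 other alternatives, with adjusted p up to 0.115.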

How the results depend on the processing

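Under the alternatives that did not leave out a library, the calls of Itgam and Plac8 in WT PRA, of Ccr2 and Ms4a4c in knockout PRA, and of Chil3 in WT vehicle against normal were kept wherever these genes were tested, and leaving out each library kept them too. A filter of 1 CPM in 3 libraries tested 2 of the 8 members, Plac8 and Ccr2, which gave 1 call in WT PRA, 1 in knockout PRA, 0 for the interaction, 0 for WT vehicle against normal and 1 for WT PRA against normal. In knockout against WT PRA, that filter called Plac8. No low-count filter called Plac8 there too, and not Ms4a4c. limma-voom gave 4 calls in WT PRA (Itgam, Chil3, Plac8 and Cx3cr1), 0 for the interaction and 0 for knockout against WT PRA. DESeq2 gave 2 for the interaction (Ms4a4c and Plac8) and 2 for knockout against WT PRA, as did RLE scaling and a fit on only those groups for the latter. No low-count filter and the fit on only its groups gave 0 for the interaction, and the latter gave 0 for WT vehicle against normal, where it did not test Chil3. The log2 fold change of Vcan turned to 0.0821 in knockout PRA and to -0.31 in WT vehicle against normal under limma-voom, and the cause was not tested.

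Leaving out 1 library gave 2 to 4 calls in WT PRA, 2 in knockout PRA, 0 to 1 for the interaction, 0 to 2 for knockout against WT PRA, 0 for knockout against WT vehicle, 1 for WT vehicle against normal and 3 to 5 for WT PRA against normal. It turned uncalled log2 fold changes of Vcan in knockout PRA (-0.79 to 0.22), the Cx3cr1 interaction (-0.0284 to 0.39), Ly6c2 in knockout against WT PRA (-0.0689 to 0.39), Ccr2, Plac8 and Vcan in WT vehicle against normal (-0.0427 to 0.36, -0.14 to 0.10 and -0.50 to 0.83), and Ly6c2 and Ccr2 in WT PRA against normal (-0.0641 to 0.34 and -0.41 to 0.0314). Genes called over the whole table went from 74 to 176 with DESeq2 for the interaction (37 to 95 with a library left out), from 591 to 927 for knockout against WT PRA (314 to 746), from 11 to 56 with DESeq2, 21 with limma-voom and 7 on only its groups for knockout against WT vehicle (2 to 15), and from 311 to 655, 648 and 154 for WT vehicle against normal (128 to 369). For the others they were 2754 to 3523 in WT PRA, 1671 to 2891 in knockout PRA and 3629 to 4825 in WT PRA against normal.

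The replicate block gave 0 calls for the interaction, where Ms4a4c had a log2 value of -2.58 with an adjusted p of 0.0862. It also ended the calls of Ms4a4c in knockout against WT PRA (0.0839) and of Vcan in WT PRA against normal (0.0734), and Plac8 passed in knockout against WT PRA (0.0433). Replicate numbers were not shown to pair the libraries: over 36 same-numbered pairs, the correlation of deviations from the group means was -0.253 to 0.193, and 9 were over 0.1. The 120 group means under other scalings stayed within 1 SD of the main value. TMM factors were 0.845 to 0.890 in WT PRA and 1.01 to 1.16 in WT vehicle, so overlap of libraries can depend on the scaling. On unscaled totals Plac8 overlapped between these groups: WT PRA replicate 3 held 191 of 44205920 counts and WT vehicle replicate 3 held 220 of 48425801. Plac8 overlapped between WT PRA and normal as well, where normal replicate 1 held 200 of 43110725 counts. Ccr2 overlapped between knockout PRA and WT PRA: knockout PRA replicate 3 held 22 of 49401347 counts and WT PRA replicate 2 held 21 of 52074951. Members had 0 to 307 counts per library, and an uncalled change at such counts is not shown to be absent.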
